A study of Mus musculus with 16 samples.

Results

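The posterior end of the embryonic mouse gut tube was compared with its anterior end, over all genes, in 4 of the study's 16 RNA-seq libraries. The members were chosen by title alone: 2 libraries of the posterior section and 2 of the anterior section, leaving out the sections whose titles name the mid gut. All came from the 13-somite stage (E8.75), and polyadenylated RNA was sequenced from bulk tissue. The study as a whole profiled whole and sectioned gut tubes of this stage and visceral endoderm of E7.5. The labels' protocol describes Afp-GFPTG/+ embryos for gut tubes of this stage, carrying a fluorescent reporter driven by regulatory sequence of a visceral endoderm gene, from natural matings. Heads and extraembryonic membranes were cut away, the torsos were loosened in pancreatin and trypsin on ice, and the tubes were freed with needles. The sex and number of embryos behind a library, the position of the cuts along the tube, and the amount of mesoderm that stayed attached are stated by none of the sources used here. The adjusted p-values of the main comparison come from a fit of all 16 libraries. They set the difference between the ends against the spread of replicates within all groups of the study, not within the ends alone. With the facts above unknown, that spread may be partly technical.

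At this stage the gut is a tube of endoderm wrapped in mesoderm, open in the middle towards the yolk sac. Its anterior end is the foregut, from which the pharynx, thyroid, lung and stomach arise, and which lies beside the forming heart. Its posterior end is the hindgut, the source of the large intestine, which abuts the tail bud and holds the primordial germ cells that migrate along it. Hox genes lie in clusters in which the order of genes along the chromosome matches the order of their anterior limits along the body. Cdx genes, homeobox relatives of the Hox genes, set up posterior identity and switch on Hox genes.

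Totals ran from 70987960 to 84509973 counts in the 8 libraries of the 4 sections, and 17313 of 26761 gene symbols passed the filter on low counts. Levels are given as CPM, counts scaled by the library's total and its TMM factor. TMM factors lay between 1.02 and 1.07 in the end sections. Pairs of values are given as replicate 1, then replicate 2. Epithelial identity was checked with Epcam, which codes for a surface protein of epithelial cells. It stood at 392 and 163 CPM in the posterior section and at 341 and 218 CPM in the anterior section, with libraries that overlapped. Of 22 gut endoderm epithelium genes tested, 4 were higher and none was lower in the posterior section, and 2 were higher without posterior replicate 1 or anterior replicate 2. The 4 genes are 18.2% of that list, against 7.91% called among all genes tested. The log2 fold change was positive for 15 of the 22 and negative for 7, so the list leaned towards the posterior section where Epcam did not. At each end, Epcam was higher in replicate 1 than in replicate 2. Its log2 fold change was -0.01 (SE 0.38, adjusted p = 0.999). Mitochondrial genes took between 2.30% and 2.52% of counts in the posterior libraries and between 1.96% and 2.02% in the anterior libraries. Xist, the RNA that coats the inactive X chromosome of female cells, stood at 104 and 76.3 CPM in the posterior section and at 368 and 432 CPM in the anterior section, a log2 fold change of -2.15 (SE 1.56, adjusted p = 0.54). Of 5 tested sex-linked genes none passed. Their log2 fold change was positive for 4 and negative for 1, with a median of 1.065. Whether the ends differed in the sex of their embryos was not tested.

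Posterior replicates 1 and 2 differed in the levels of tissue marker genes. Col1a1, a collagen gene of mesenchyme, stood at 9.69 and 132 CPM in them, and Foxf1, a regulator of gut mesoderm, at 22.4 and 167 CPM. Over 21 genes of splanchnic and other mesenchyme the summed level was 570 and 1782 CPM in the posterior section, against 1025 and 1514 CPM in the anterior section. Posterior replicate 2 therefore carried more mesenchymal RNA than posterior replicate 1, while both anterior libraries lay between them. Among the anterior libraries, replicate 2 had the higher summed level of the cardiac list, with 860 and 1507 CPM over 20 genes. The sum of the neural crest list was also higher in it, with 146 and 214 CPM over 11 genes. That crest sum was no lower in the posterior section, at 192 and 214 CPM, so it is not a measure of crest cells alone. The part of these differences in the results below was not tested, except by leaving out each library in turn. In pools of this kind, fewer cells of a type and less RNA per cell cannot be told apart.

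Of the 17313 genes tested, 1370 differed between the sections by edgeR's quasi-likelihood test at an adjusted p under 0.05, which is 7.91% of all genes. In the posterior section 697 genes were higher (4.03%) and 673 were lower (3.89%). The posterior and anterior libraries did not overlap for any of the 1370, but the same held for 9357 of all genes tested. Of the genes called, 1116 differed by a log2 fold change over 1 in size, and 184 by over 5, of which 105 were higher and 79 lower. The count was 685 without posterior replicate 1, 615 without anterior replicate 1 and 707 without anterior replicate 2, and 410 of the 1370 genes were called with each of the 4 libraries left out in turn. The median log2 fold change over all genes was 0.00915. Gene lists were chosen with earlier results of these data known, so their counts describe the members and are not a test. The largest increases with a mean of at least 8 CPM belonged to Msgn1, Dppa3, 9 Hox genes and Cdx4, and the largest decreases included those of Pax1, Foxi2, Nkx2-5, Csrp3, Ttn, Sphkap, Vgll2, Sox10, Otx2, Tbx1 and Six2.

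**Figure D1:**
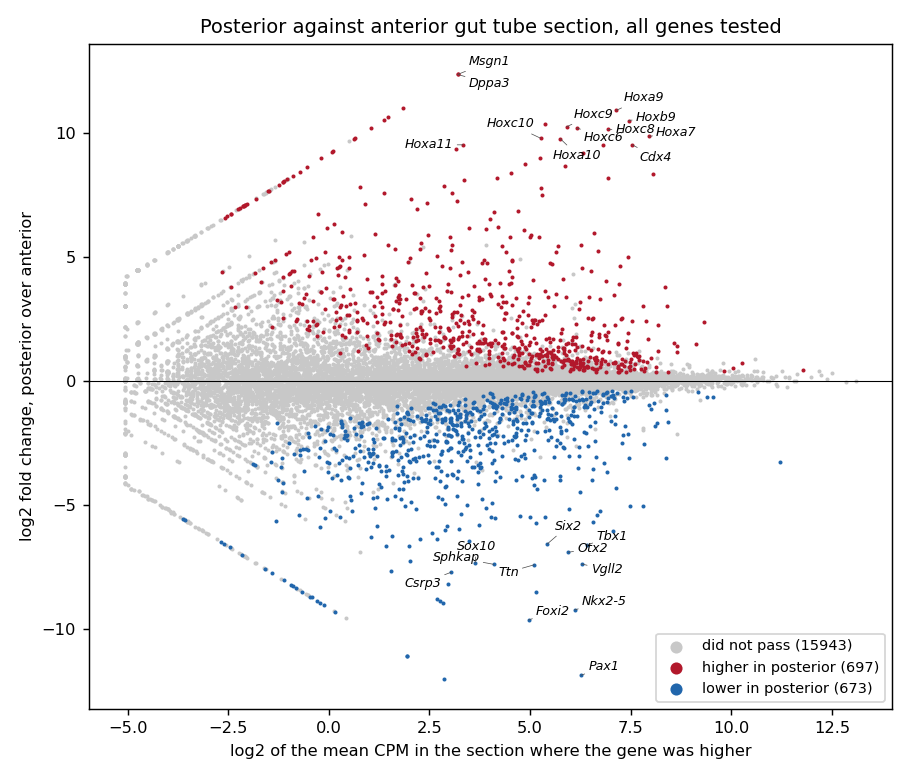
Log2 fold change of the posterior over the anterior section for each of 17313 genes, against the log2 of the mean CPM in the section where the gene was higher. Red points are the 697 genes higher and blue points the 673 genes lower in the posterior section, grey points did not pass, and names mark the largest changes in each direction under the naming rule. The straight rows of points at the left are genes with few counts in 1 section and none or few in the other, whose fitted fold changes depend on the prior count.

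Most Hox genes were higher in the posterior section, and the median log2 fold change was larger in the later paralog groups. Of 39 Hox genes, 37 were tested, 29 were higher in the posterior section and 1 was lower. Of the 12 tested genes of paralog groups 1 to 4, 6 were higher and 1 lower, with a median log2 fold change of 2.14. All 11 genes of groups 5 to 8 were higher, with a median of 8.21. Of the 14 tested genes of groups 9 to 13, 12 were higher. Their median was 9.52, and 9.43 once genes without counts in the anterior section were set to their bound. Their median posterior level was 4.355 and 3.886 as log2(CPM + 1), against 5.469 and 5.161 for groups 5 to 8. In the anterior section these medians were 0.0079 and 0.071, against 0.151 and 0.28. The larger median of groups 9 to 13 thus went with anterior levels nearer 0, and not with higher posterior levels. Hoxc12 and Hoxd12 had too few counts to be tested. Leaving out 1 library at a time gave between 9 and 10 of 11 for groups 5 to 8, between 10 and 12 of 14 for groups 9 to 13, and between 4 and 6 of 12 for groups 1 to 4, with 0 or 1 lower. By cluster, 8 of 11 tested genes were higher in cluster A, 7 of 10 in B, 7 of 8 in C and 7 of 8 in D.

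Hoxa9 stood at 162 and 120 CPM in the posterior section and at 0.0221 and 0.126 CPM in the anterior section, a log2 fold change of 10.92 (SE 0.94, adjusted p = 6.39e-05). Hoxa7 stood at 308 and 188 CPM in the posterior section and at 0.111 and 0.429 CPM in the anterior section, a log2 fold change of 9.87 (SE 0.78, adjusted p = 4.07e-05). Hoxb9 reached 142 and 207 CPM in the posterior section, against 0.0884 and 0.151 CPM in the anterior section, with a log2 fold change of 10.51 (SE 1.04, adjusted p = 0.000165). In each case the anterior libraries were near 0 and both posterior libraries far above them. The same pattern held for Hoxc6, Hoxc8, Hoxc9, Hoxc10 and Hoxa10, with log2 fold changes of 10.21, 10.15, 10.26, 9.80 and 9.77. Hoxa11 had 8.74 and 11.4 CPM in the posterior section and 0 and 0.0252 CPM in the anterior section, a log2 fold change of 9.53 (SE 1.62, adjusted p = 0.00388), and its call was lost without anterior replicate 1 (adjusted p = 0.0545). Hoxd13, of the last paralog group, stood at 29.5 and 16.6 CPM in the posterior section and at 0.0111 and 0.126 CPM in the anterior section, a log2 fold change of 8.41 (SE 0.97, adjusted p = 0.000372). Both posterior libraries thus held a gene of the last group well above the anterior ones. Hoxa13, of the same group, had 3.55 and 4.75 CPM there, against 0 and 0.0504 CPM in the anterior section (log2 fold change 7.33, SE 1.27, adjusted p = 0.00437). Hoxc11, with 0.903 and 1.93 CPM in the posterior section and no count in the anterior section, was at least 79.9-fold higher but did not pass (adjusted p = 0.0695).

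The anterior paralog groups were mixed. Hoxb1 stood at 34.5 and 29.3 CPM in the posterior section and at 29.1 and 32.6 CPM in the anterior section, so that its libraries overlapped (log2 fold change 0.05, SE 0.29, adjusted p = 0.971). Hoxd1, of the same paralog group, had 29.9 and 35.3 CPM in the posterior section and 0.265 and 0.832 CPM in the anterior section, a log2 fold change of 5.90 (SE 0.74, adjusted p = 0.000609). Hoxc4 likewise stood at 44.5 and 49.1 CPM in the posterior section, against 1.39 and 2.18 CPM in the anterior section, a log2 fold change of 4.71 (SE 0.39, adjusted p = 4.68e-05). The paralog groups 1 to 4 thus held genes with no detectable difference beside genes with differences as large as those of Hoxa5, at 3.93.

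The middle sections, which did not enter the comparison, showed where along the tube each Hox group came up. All 14 tested genes of groups 9 to 13 had their highest mean in the posterior section, and the median of their midgut-posterior levels was 5.71% of the posterior level. For groups 5 to 8 the same median was 33.4%, and Hoxa5, Hoxb5 and Hoxc5 peaked in the midgut-posterior section instead. Hoxa5 ran at 16.1 and 22.2 CPM in the posterior section, next 50.7 and 42.4 CPM (midgut-posterior) and 23.4 and 22.9 CPM (anterior-midgut), and lastly 0.608 and 1.92 CPM in the anterior section. Hoxb9 had 51.8 and 58.3 CPM in the midgut-posterior section and 0.065 and 1.13 CPM in the anterior-midgut section, while Hoxa9 had 7.44 and 18.8 CPM and 0.13 and 0.312 CPM there. Of the 12 genes of groups 1 to 4, 6 were highest in the anterior-midgut section, 5 in the posterior and 1 in the midgut-posterior section. Members of 1 paralog group therefore did not share 1 profile. In the GENCODE M21 annotation, 16 of the 39 Hox genes share exon bases with another gene, 10 of them with a gene on the opposite strand and 9 with one on the same strand, and the strand setting of the counting is not known here. Levels of those genes may include reads of their neighbours, and this was not tested.

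**Figure D2:**
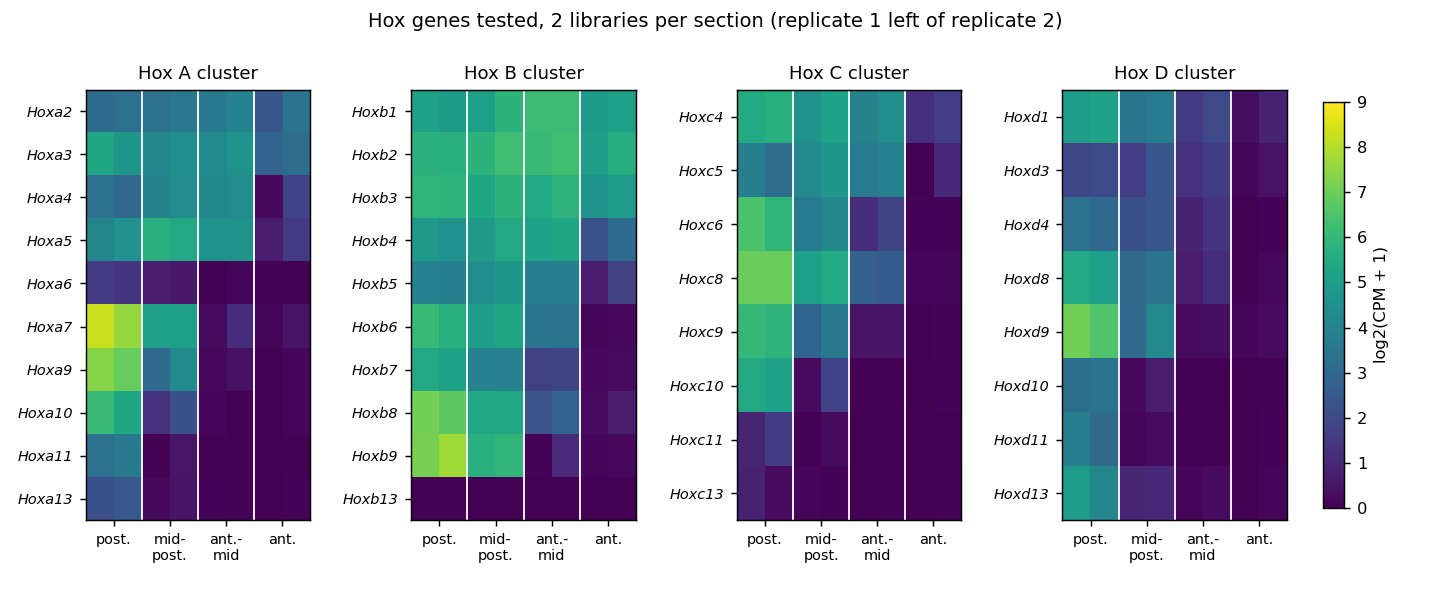
Levels of the tested Hox genes, 1 left out, as log2(CPM + 1), by cluster and in the order of their paralog groups from top to bottom, in 2 libraries each of the posterior, midgut-posterior, anterior-midgut and anterior section from left to right. Genes of the last paralog groups, towards the bottom of a panel, have what signal they show mainly in the posterior section, and some are near 0 in all sections. Those of group 9 also reach into the midgut-posterior section, and those in the middle of a panel extend into the middle sections. Hoxb1, Hoxb2 and Hoxb3 are bright in all 4 sections.

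The Cdx and Evx homeobox genes were all higher in the posterior section, 5 of 5 tested, with a median log2 fold change of 8.36. Cdx2, which directs hindgut endoderm towards intestine, stood at 322 and 208 CPM in the posterior section and at 0.685 and 0.933 CPM in the anterior section, a log2 fold change of 8.36 (SE 0.31, adjusted p = 1.25e-07), the smallest adjusted p of all genes tested. Cdx4 stood at 216 and 158 CPM in the posterior section and at 0.111 and 0.403 CPM in the anterior section (log2 fold change 9.53, SE 0.88, adjusted p = 0.000169). Evx1, which marks the primitive streak and tail bud, stood at 98.2 and 60.8 CPM in the posterior section and at 0.0221 and 0.252 CPM in the anterior section (log2 fold change 9.21, SE 0.71, adjusted p = 4.07e-05). These genes were steeply graded along the tube but not alike. Cdx2 still had 80.0 and 59.9 CPM in the midgut-posterior and 16.1 and 15.7 CPM in the anterior-midgut section, while Cdx4 had 13.2 and 16.9 CPM and 0.026 and 0.0519 CPM there. Cdx1 differed less, with 19.2 and 20.8 CPM in the posterior section and 2.09 and 2.28 CPM in the anterior section (log2 fold change 3.20, SE 0.40, adjusted p = 0.000563). The call on Evx2 was lost without anterior replicate 1 (adjusted p = 0.132), anterior replicate 2 (0.0781) or posterior replicate 1 (0.0742). Among 9 Hox cofactor genes of the Pbx, Meis and Pknox families, Meis2 alone was called, lower in the posterior section at 36.3 and 120 CPM, against 275 and 280 CPM in the anterior section (log2 fold change -1.83, SE 0.39, adjusted p = 0.013). Its call was lost without anterior replicate 1 (adjusted p = 0.0571) or anterior replicate 2 (adjusted p = 0.056), and 2 cofactor genes were lower without posterior replicate 2.

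Promoters are shown for genes near the top and bottom of the list of changes, since CDX, TCF and T-box factors are known regulators of posterior genes. The 250 bases before the start are given from RefSeq with the GRCm38.p6 build, 5′ to 3′ on the strand of the gene. Shown are 3 genes that were higher (Hoxa7, Msgn1 and Cdx2) and Pax1, which was lower. They are a part of the windows searched, and the rest are named below. Capitals mark matches, on either strand, to TTTATG, a core bound by CDX proteins and posterior HOX proteins, to CTTTGAT, a core of TCF and LEF factors, and to AGGTGTGA, a site of T-box factors.
Hoxa7, chr6:52218574-52218823, minus strand
Hoxa7: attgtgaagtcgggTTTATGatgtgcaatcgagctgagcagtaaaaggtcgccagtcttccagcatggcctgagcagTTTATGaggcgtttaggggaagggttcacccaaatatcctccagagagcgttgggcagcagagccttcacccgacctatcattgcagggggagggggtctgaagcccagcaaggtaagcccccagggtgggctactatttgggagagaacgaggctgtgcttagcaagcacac
Msgn1, chr12:11208949-11209198, minus strand
Msgn1: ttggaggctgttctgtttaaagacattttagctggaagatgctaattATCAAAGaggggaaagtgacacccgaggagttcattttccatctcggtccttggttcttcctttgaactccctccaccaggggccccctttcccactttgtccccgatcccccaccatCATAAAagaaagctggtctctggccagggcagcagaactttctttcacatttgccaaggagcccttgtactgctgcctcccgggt
Cdx2, chr5:147307250-147307499, minus strand
Cdx2: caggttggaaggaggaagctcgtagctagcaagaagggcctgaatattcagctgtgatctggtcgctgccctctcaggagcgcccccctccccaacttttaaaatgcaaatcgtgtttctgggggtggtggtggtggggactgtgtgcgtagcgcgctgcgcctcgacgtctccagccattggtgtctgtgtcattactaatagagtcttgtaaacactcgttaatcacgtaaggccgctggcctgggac
Pax1, chr2:147364744-147364993, plus strand
Pax1: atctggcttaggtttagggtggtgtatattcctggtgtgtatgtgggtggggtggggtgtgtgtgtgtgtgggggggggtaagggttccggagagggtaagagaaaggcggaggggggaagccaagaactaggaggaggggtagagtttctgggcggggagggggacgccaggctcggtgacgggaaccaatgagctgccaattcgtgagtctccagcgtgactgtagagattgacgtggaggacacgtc
Hoxa7 held TTTATG 2 times, and Msgn1 held 1 match to it, read on the other strand as CATAAA, and 1 to the TCF and LEF core, read as ATCAAAG. Cdx2 and Pax1 held none of the 3 motifs in this window, and neither did the windows of Hoxa9, Hoxa10, Foxi2 and Nkx2-5, which were also searched. Hoxa10 has 2 listed promoters, and this statement covers only the first by its start coordinate. Over all 32851 promoter windows of the table, 10.8% held TTTATG, 3.21% CTTTGAT and 1.12% AGGTGTGA. TTTATG was present in 14.3% of 504 genes higher in the posterior section that had a window, in 7.54% of 491 lower genes and in 8.03% of 12720 tested genes. For CTTTGAT these shares were 3.97%, 2.24% and 2.84%, and for AGGTGTGA 0.992%, 0.611% and 1.05%. In the shares of genes, a gene counted if any of its listed windows held the letters. The shares are descriptions without a test, and a match to such short letters is not a binding site.

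**Figure D3:**
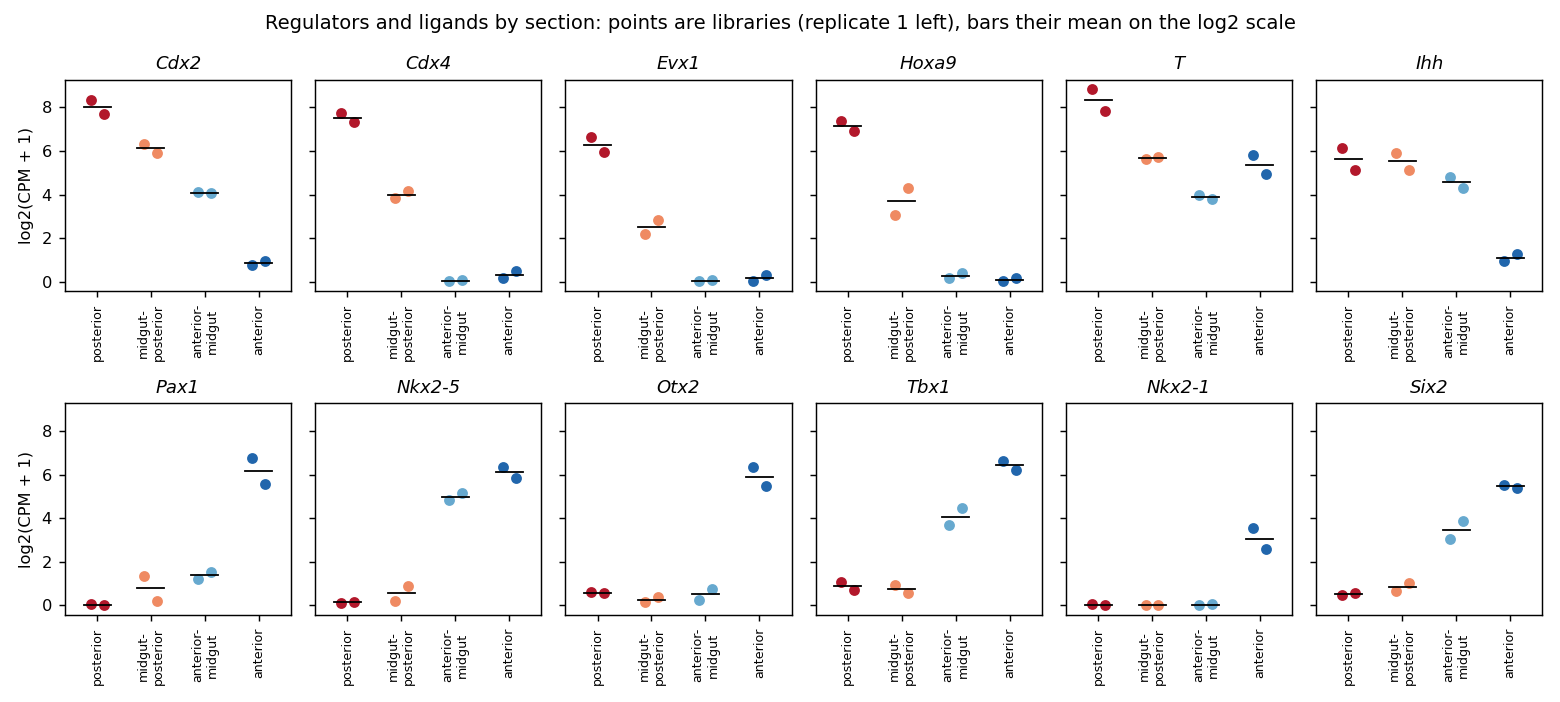
Levels of 12 regulators and ligands as log2(CPM + 1) in the posterior, midgut-posterior, anterior-midgut and anterior section, with each library as a point and the mean on the log2 scale as a bar. Cdx2 falls off stepwise from the left, Cdx4, Evx1 and Hoxa9 are near 0 in both anterior sections, and the genes of the lower row are near 0 in the posterior section, with Nkx2-5, Tbx1 and Six2 also present in the anterior-midgut section.

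Regulators of the foregut and pharynx were lower in the posterior section: 23 of 29 tested genes fell and none rose, with a median log2 fold change of -3.09. Of these 29, 28 had their highest mean in the anterior section, and the count of lower genes ran from 16 without posterior replicate 1 to 20 without anterior replicate 2. Pax1, needed in the pharyngeal pouches for the thymus, stood at 0.0366 and 0 CPM in the posterior section and at 107 and 47.1 CPM in the anterior section, a log2 fold change of -11.89 (SE 1.35, adjusted p = 0.000488). Nkx2-5, which acts in pharyngeal endoderm and the heart, stood at 0.0977 and 0.126 CPM in the posterior section and at 81.4 and 56.5 CPM in the anterior section (log2 fold change -9.25, SE 1.32, adjusted p = 0.00138). Both genes were under 0.13 CPM in both posterior libraries. Tbx1, which patterns the pharyngeal arches, stood at 1.09 and 0.64 CPM in the posterior section, against 97.3 and 73.9 CPM in the anterior section (log2 fold change -6.63, SE 1.06, adjusted p = 0.00262). Six2 stood at 0.391 and 0.502 CPM in the posterior section, against 44.5 and 41.5 CPM in the anterior section (log2 fold change -6.59, SE 0.99, adjusted p = 0.00186).

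Eya1, of a pharyngeal and sensory gene network, differed by less and was above 5 CPM in the posterior libraries. It stood at 12.4 and 11.2 CPM in the posterior section and at 113 and 87.7 CPM in the anterior section (log2 fold change -3.09, SE 0.27, adjusted p = 7.46e-05). The Iroquois homeobox genes Irx1 and Irx5 fell by 4.33 and 3.85 on the log2 scale (adjusted p = 0.00187 and 0.00102). Nkx2-1, the regulator of thyroid and lung, stood at 0.0488 and 0 CPM in the posterior section and at 10.6 and 5.03 CPM in the anterior section (log2 fold change -8.21, SE 1.52, adjusted p = 0.0078), and its call was lost without posterior replicate 2 (adjusted p = 0.0533). Its middle-section levels were at most 0.0519 CPM, so its transcripts lay in the anterior section in both replicates. Otx2, a head regulator, stood at 0.513 and 0.502 CPM in the posterior section and at 79.6 and 43.6 CPM in the anterior section (log2 fold change -6.92, SE 1.36, adjusted p = 0.00889). Its call was lost without posterior replicate 1 (adjusted p = 0.082) or posterior replicate 2 (adjusted p = 0.0637). Foxi2, a forkhead gene, was among the 12 largest decreases, but its call was lost without posterior replicate 1 (adjusted p = 0.0806) or posterior replicate 2 (adjusted p = 0.0871). Vgll2, which codes for a cofactor of TEAD proteins, lost its call without anterior replicate 1 (adjusted p = 0.0613) or posterior replicate 2 (adjusted p = 0.0712). Sox2, a foregut regulator that also marks neural and tail bud progenitors, stood at 37.8 and 24.8 CPM in the posterior section and at 120 and 75.9 CPM in the anterior section (log2 fold change -1.65, SE 0.44, adjusted p = 0.0422). Its call was lost without any 1 of the 4 libraries, with adjusted p-values between 0.0659 and 0.274. Sox2 was lowest in the middle of the tube, at 9.80 and 5.81 CPM in the midgut-posterior section.

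Among regulators of the liver, pancreas and intestine 9 of 22 tested were higher and 1 was lower in the posterior section, with a median log2 fold change of 1.29. Without anterior replicate 1 the count of higher genes was 3. Foxa3, a forkhead gene of midgut and hindgut endoderm, stood at 17.5 and 8.87 CPM in the posterior section and at 1.51 and 0.983 CPM in the anterior section (log2 fold change 3.40, SE 0.43, adjusted p = 0.000626). Foxa3 had between 6.79 and 14.1 CPM in the middle sections, so the anterior section was the lowest of the 4. Mnx1, a homeobox gene of pancreas, notochord and tail bud, stood at 69.0 and 30.9 CPM in the posterior section and at 5.61 and 3.09 CPM in the anterior section (log2 fold change 3.52, SE 0.47, adjusted p = 0.00093). Hnf4a, a regulator of liver, intestine and visceral endoderm, was called higher at 3.00 and 12.3 CPM, against 0.221 and 1.03 CPM in the anterior section (log2 fold change 3.63, SE 0.80, adjusted p = 0.0161). The Hnf4a call was lost without anterior replicate 1 (adjusted p = 0.136) or posterior replicate 2 (adjusted p = 0.116). Its levels were between 24.2 and 67.1 CPM in the middle sections, above both ends. The 1 lower gene, Onecut2, lost its call without any 1 of the 4 libraries (adjusted p between 0.102 and 0.249).

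Wnt signalling, which maintains the tail bud and posterior identity, differed at several levels. Of 18 tested Wnt ligands, 3 were higher (Wnt5a, Wnt5b, Wnt11) and 3 lower (Wnt4, Wnt9a, Wnt9b), while the fits without 1 library called between 1 and 4 higher and 1 or 2 lower. Wnt5b stood at 184 and 85.1 CPM in the posterior section and at 13.6 and 10.8 CPM in the anterior section (log2 fold change 3.46, SE 0.36, adjusted p = 0.000212), and was the only ligand called in each of the 4 fits with a library left out. Wnt3a, the ligand of the tail bud, had 37.3 and 16.3 CPM in the posterior section and 0 and 1.79 CPM in the anterior section, and did not pass (log2 fold change 4.92, SE 1.46, adjusted p = 0.0674), except without anterior replicate 2 (adjusted p = 0.0122). Of 22 R-spondin and receptor genes, 2 were higher and 8 lower. The R-spondin Rspo3, which amplifies Wnt signals, stood at 125 and 67.3 CPM in the posterior section and at 0.884 and 2.22 CPM in the anterior section (log2 fold change 5.96, SE 0.67, adjusted p = 0.000339). Its relative Rspo2 stood at 0.525 and 0.339 CPM in the posterior section and 21.3 and 8.90 CPM in the anterior section (log2 fold change -5.12, SE 0.93, adjusted p = 0.00722), a call lost without posterior replicate 1 (adjusted p = 0.0521) or posterior replicate 2 (adjusted p = 0.0546). The posterior libraries were thus high in Rspo3 and low in Rspo2, and the anterior libraries the opposite.

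Frizzled receptor genes also differed in both directions. Fzd10 stood at 129 and 109 CPM in the posterior section and at 3.73 and 10.7 CPM in the anterior section (log2 fold change 4.05, SE 0.54, adjusted p = 0.000933). Fzd7 stood at 37.5 and 55.3 CPM in the posterior section and at 160 and 170 CPM in the anterior section, with a log2 fold change of -1.83 (SE 0.18, adjusted p = 0.000151). Fzd5 and the co-receptor gene Ror1 were also lower, with log2 fold changes of -1.67 and -2.97 (adjusted p = 0.0013 and 0.00208). The other lower members of that list were Fzd1, Fzd2, Fzd4 and Fzd8 beside Rspo2, and without posterior replicate 1 or anterior replicate 1 the count of lower members was 4. Of 15 Wnt target and feedback genes, 9 were higher and 1 was lower. The lower gene was Tcf7l1, a call lost without any 1 of the 4 libraries. Fewer members were higher without posterior replicate 1 or anterior replicate 1. Lef1, a nuclear effector, stood at 112 and 116 CPM in the posterior section and at 18.3 and 29.9 CPM in the anterior section (log2 fold change 2.24, SE 0.32, adjusted p = 0.00137). The secreted inhibitor gene Notum and the feedback genes Rnf43 and Nkd1 rose by 3.5, 2.45 and 1.88 on the log2 scale (adjusted p = 0.00589, 0.00054 and 0.00098). These 3 code for proteins that damp Wnt signalling. Axin2, the usual reporter of the pathway, stood at 130 and 81.6 CPM in the posterior section and at 29.1 and 33.6 CPM in the anterior section (log2 fold change 1.75, SE 0.38, adjusted p = 0.0141). Its call was lost without anterior replicate 1 (adjusted p = 0.118), anterior replicate 2 (0.0771) or posterior replicate 1 (0.111).

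Among Wnt antagonists 2 of 15 were higher and 2 lower, while the fits without 1 library called between 0 and 2 higher and 1 or 2 lower, with 0 higher without anterior replicate 1 or anterior replicate 2. Shisa2, which holds Wnt and FGF receptors inside the cell, stood at 17.2 and 19.6 CPM in the posterior section and at 109 and 86.8 CPM in the anterior section (log2 fold change -2.41, SE 0.42, adjusted p = 0.00429). Sfrp5, a foregut antagonist, peaked in the anterior-midgut section at 114 and 74.4 CPM, and had 0.269 and 0.201 CPM in the posterior section, against 1.22 and 13.5 CPM in the anterior section (log2 fold change -4.96, SE 1.01, adjusted p = 0.0107). That call was lost without anterior replicate 2 (adjusted p = 0.0858), posterior replicate 1 (0.0842) or posterior replicate 2 (0.0759). Both anterior libraries exceeded both posterior ones for Sfrp5, but they differed widely from one another.

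FGF ligands were split, 1 of 20 higher and 3 lower in the posterior section. Fgf17, a ligand of the tail bud, stood at 67.6 and 33.0 CPM in the posterior section and at 0.751 and 1.97 CPM in the anterior section (log2 fold change 5.21, SE 0.63, adjusted p = 0.000488). Fgf8, its close relative, was high at both ends, at 112 and 45.7 CPM in the posterior section and 54.5 and 37.3 CPM in the anterior section (log2 fold change 0.79, SE 0.59, adjusted p = 0.559), and between 1.69 and 7.09 CPM in the middle sections. Fgf8 libraries of the ends overlapped, and both ends stood above the middle. The receptor gene Fgfr4 stood at 22.1 and 17.5 CPM in the posterior section and at 1.31 and 2.37 CPM in the anterior section (log2 fold change 3.43, SE 0.32, adjusted p = 0.000118). The ETS genes Etv4 and Etv1, both switched on by FGF signals, differed in opposite directions. Etv4 stood at 147 and 84.4 CPM in the posterior section, against 33.1 and 30.5 CPM in the anterior section (log2 fold change 1.86, SE 0.32, adjusted p = 0.00444). Etv1 stood at 1.56 and 2.56 CPM in the posterior section, against 9.53 and 8.74 CPM in the anterior section (log2 fold change -2.15, SE 0.35, adjusted p = 0.00313).

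Retinoic acid, a signal that FGF and Wnt oppose in the tail, is made by ALDH1A enzymes and degraded by CYP26 enzymes. Of 18 tested genes of the pathway 2 were higher and 4 lower in the posterior section. Genes of 2 degrading enzymes differed in opposite directions. Cyp26a1 stood at 196 and 82.7 CPM in the posterior section and at 33.6 and 24.1 CPM in the anterior section (log2 fold change 2.27, SE 0.33, adjusted p = 0.00166). Cyp26c1 stood at 2.20 and 1.34 CPM in the posterior section and at 37.8 and 34.5 CPM in the anterior section (log2 fold change -4.35, SE 0.71, adjusted p = 0.00301). So did genes of 2 receptors. Rarg stood at 123 and 114 CPM in the posterior section, against 35.2 and 32.7 CPM in the anterior section (log2 fold change 1.80, SE 0.22, adjusted p = 0.00056), and Rarb at 10.2 and 16.6 CPM, against 74.0 and 62.1 CPM (log2 fold change -2.34, SE 0.27, adjusted p = 0.000372). Crabp2, which carries retinoic acid to its receptors, fell by 1.14 on the log2 scale (SE 0.19, adjusted p = 0.00326). These 5 genes were called with each library left out in turn. Aldh1a2, the main enzyme of synthesis in the trunk, was low at both ends, at 8.69 and 17.9 CPM in the posterior section and 20.2 and 46.5 CPM in the anterior section, against 93.2 to 214 CPM in the middle sections, and did not pass between the ends (log2 fold change -1.32, SE 0.45, adjusted p = 0.101).

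Hedgehog ligands signal from gut endoderm to the mesoderm around it. Of 17 tested pathway genes, 1 was higher and 1 lower (Cdon, in none of the fits without 1 library). The counts were 3 higher and 0 lower without posterior replicate 1, 1 higher and 2 lower without posterior replicate 2, and 1 higher and 0 lower without anterior replicate 1 or anterior replicate 2. Ihh stood at 68.5 and 34.4 CPM in the posterior section and at 0.928 and 1.42 CPM in the anterior section (log2 fold change 5.45, SE 0.42, adjusted p = 4.07e-05), and was between 18.9 and 59.6 CPM in the middle sections. Shh, its relative, stood at 204 and 92.8 CPM in the posterior section and at 91.1 and 52.9 CPM in the anterior section, and its end sections did not pass (log2 fold change 1.04, SE 0.43, adjusted p = 0.192). The anterior section was thus the one section without Ihh above 2 CPM, whereas Shh was present in all sections. Ptch1, the receptor gene that Hedgehog signals induce, stood at 319 and 412 CPM in the posterior section and at 297 and 260 CPM in the anterior section (log2 fold change 0.39, SE 0.25, adjusted p = 0.469).

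Of 21 tested BMP and TGF-beta ligands, 5 were higher and 5 lower. Nodal, which acts in early axis formation and in the node, stood at 4.08 and 2.66 CPM in the posterior section and at 0.287 and 0.328 CPM in the anterior section (log2 fold change 3.45, SE 0.41, adjusted p = 0.000457). Bmp4, a ventral and posterior ligand, stood at 100 and 106 CPM in the posterior section and at 41.0 and 44.5 CPM in the anterior section (log2 fold change 1.27, SE 0.24, adjusted p = 0.00774), a call lost without anterior replicate 1 (adjusted p = 0.074). Bmp6 stood at 2.87 and 3.82 CPM in the posterior section and at 12.7 and 8.09 CPM in the anterior section (log2 fold change -1.64, SE 0.24, adjusted p = 0.00146). Bmp10, a ligand of heart muscle, had no count in the posterior section and 0.177 and 1.31 CPM in the anterior section, at least 38.1-fold lower (adjusted p = 0.00893), a call lost without posterior replicate 1 (adjusted p = 0.0588). Without anterior replicate 1 the list held 1 higher and 2 lower members, and without posterior replicate 1 it held 3 and 2. Among 20 BMP antagonists and targets, Msx1 was the 1 higher gene, at 99.6 and 87.8 CPM in the posterior section and 8.85 and 24.2 CPM in the anterior section (log2 fold change 2.50, SE 0.40, adjusted p = 0.00286), and 3 were lower, none of them without anterior replicate 1 or anterior replicate 2.

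Genes of the tail bud and its neuromesodermal progenitors were higher in the posterior section in 10 of 14 cases, with 1 lower (Sox2) and a median log2 fold change of 4.12. The count of higher genes was between 9 and 11 with 1 library left out. T, the T-box gene of notochord and tail bud, stood at 453 and 224 CPM in the posterior section and at 54.9 and 29.3 CPM in the anterior section (log2 fold change 3.01, SE 0.47, adjusted p = 0.00222). Nkx1-2 stood at 10.8 and 53.2 CPM in the posterior section and at 0.707 and 0.429 CPM in the anterior section (log2 fold change 5.81, SE 0.98, adjusted p = 0.00368), and the ephrin receptor gene Epha5 at 23.1 and 12.9 CPM, against 0.0442 and 0.0756 CPM (log2 fold change 8.21, SE 0.81, adjusted p = 0.000157). Posterior replicate 1 was the higher one for T and Epha5 and the lower one for Nkx1-2. Genes of presomitic mesoderm, the tissue that forms somites beside the hindgut, were present too. Msgn1, a bHLH regulator of that tissue, stood at 10.1 and 8.51 CPM in the posterior section and had no count in the anterior section, at least 526-fold higher (adjusted p = 0.00307). Tbx6, the T-box gene of the same tissue, stood at 16.8 and 12.4 CPM in the posterior section and at 0.497 and 0.492 CPM in the anterior section (log2 fold change 4.88, SE 0.69, adjusted p = 0.00136).

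The segmentation clock genes Hes7 and Dll3, a target and a ligand-like member of the Notch pathway, were higher, at 31.8 and 13.2 CPM and at 25.4 and 18.9 CPM in the posterior section, against 0.309 and 0.504 CPM and 0.884 and 1.15 CPM in the anterior section (log2 fold change 5.79 and 4.45, adjusted p = 0.000361 and 0.000315). Over the paraxial mesoderm list 5 of 17 were higher and 1 lower, with 2 lower without posterior replicate 2 and 0 lower without any other of the 4 libraries, while Meox1, a gene of formed somites, did not pass (log2 fold change -1.55, SE 0.55, adjusted p = 0.131). Over the notochord list 4 of 10 were higher (T, Noto, Bicc1, Foxa2) and none was lower, and the count was 1 without anterior replicate 1 or anterior replicate 2 and 2 without posterior replicate 1. Noto, a regulator of node and notochord, stood at 51.8 and 22.9 CPM in the posterior section and at 0.873 and 0.454 CPM in the anterior section (log2 fold change 5.80, SE 1.21, adjusted p = 0.0121). The call on Noto was lost without anterior replicate 1 (adjusted p = 0.0839) or anterior replicate 2 (adjusted p = 0.118). The summed level of the tail bud list was 1602 and 871 CPM in the posterior section, against 346 and 216 CPM in the anterior section, and that of the notochord list 993 and 513 CPM, against 322 and 211 CPM. The part of tail bud, notochord and presomitic cells in the Hox, Cdx and Wnt differences was not tested.

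Primordial germ cell genes were higher in 6 of 20 cases and lower in 1, with a median log2 fold change of 1.89, and 17 of the 20 had their highest mean in the posterior section. Dppa3, a maternal and germ cell factor, stood at 16 and 2.42 CPM in the posterior section and had no count in the anterior section. With the 2 posterior libraries pooled it was at least 527-fold higher (adjusted p = 0.00495), a bound that leaves out their spread. Prdm14, which specifies germ cells, stood at 3.44 and 0.678 CPM in the posterior section with no count in the anterior section. Pooled in the same way, it was at least 118-fold higher (adjusted p = 0.00376). Pou5f1, the pluripotency factor kept in germ cells, stood at 43.1 and 9.36 CPM in the posterior section and at 0.287 and 0.151 CPM in the anterior section (log2 fold change 6.88, SE 0.94, adjusted p = 0.00106). In all 3 genes posterior replicate 1 was several times higher than posterior replicate 2. The same 3 genes had 6.74 and 1.97, 1.40 and 0.443, and 19.6 and 5.96 CPM in the midgut-posterior section, and at most 0.13 CPM in the anterior-midgut section. Ifitm1 was even between the replicates, at 155 and 150 CPM in the posterior section and 29.3 and 24.1 CPM in the anterior section (log2 fold change 2.51, SE 0.30, adjusted p = 0.000461), and it is also made in posterior mesoderm. The 1 lower gene, Prdm1, which specifies germ cells and also acts in pharyngeal endoderm, stood at 19.7 and 20.9 CPM in the posterior section and at 70.5 and 54.6 CPM in the anterior section (log2 fold change -1.62, SE 0.20, adjusted p = 0.00054).

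Visceral endoderm genes were called higher in 11 of 26 cases and lower in none, with a median log2 fold change of 3.5, but this count moved with each library left out. It was 15 higher without posterior replicate 1, 3 higher and 2 lower without posterior replicate 2, 3 higher without anterior replicate 1 and 4 higher without anterior replicate 2. Afp, whose product carries fetal serum ligands, stood at 34.0 and 314 CPM in the posterior section and at 2.33 and 8.57 CPM in the anterior section (log2 fold change 5.00, SE 1.05, adjusted p = 0.0129), a call lost without anterior replicate 1 (adjusted p = 0.116) or posterior replicate 2 (adjusted p = 0.084). Apoa1, of the lipid transport genes, stood at 3.09 and 150 CPM in the posterior section and at 1.77 and 1.64 CPM in the anterior section (log2 fold change 5.49, SE 1.52, adjusted p = 0.0478). Its adjusted p was 0.8 without posterior replicate 2, 0.253 without anterior replicate 1 and 0.248 without anterior replicate 2. The high values of Afp and Apoa1 thus lay mainly in posterior replicate 2. The summed level of the list was 465 and 1841 CPM in the posterior section, against 434 and 430 CPM in the anterior section. It was 7243 and 4684 CPM in the midgut-posterior section. Tdh, Cited1 and Rhox5 did not follow posterior replicate 2. Cited1, a transcriptional coactivator gene, stood at 93.9 and 62.7 CPM in the posterior section and at 2.07 and 4.59 CPM in the anterior section (log2 fold change 4.56, SE 0.64, adjusted p = 0.00119). Tdh stood at 24.2 and 22.7 CPM in the posterior section and at 0.884 and 0.706 CPM in the anterior section (log2 fold change 4.88, SE 0.52, adjusted p = 0.000247). Both, and Rhox5, were called with each library left out in turn.

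Heart genes were lower in the posterior section, 12 of 20 tested, with none higher and a median log2 fold change of -3.87. Without posterior replicate 1 the list held 4 lower genes and 1 higher. Ttn, the giant spring protein of muscle, stood at 0.244 and 0.151 CPM in the posterior section and at 23.6 and 45.1 CPM in the anterior section (log2 fold change -7.43, SE 0.87, adjusted p = 0.000414). Myl7, the atrial myosin light chain, stood at 4 and 1.52 CPM in the posterior section and at 75.9 and 137 CPM in the anterior section (log2 fold change -5.26, SE 0.95, adjusted p = 0.00546). Mef2c, a regulator of heart muscle, fell by 2.68 on the log2 scale (SE 0.32, adjusted p = 0.000488). Sphkap, whose product anchors protein kinase A in heart muscle, was not on the list but was among the 12 largest decreases, with 0.0733 and 0.126 CPM in the posterior section and 9.30 and 25 CPM in the anterior section (log2 fold change -7.41, SE 0.74, adjusted p = 0.000169). Csrp3, a muscle LIM protein gene, fell by 7.73 on the log2 scale (adjusted p = 0.0195), a call lost without anterior replicate 2 (adjusted p = 0.0668), posterior replicate 1 (0.131) or posterior replicate 2 (0.115). The summed level of the 20 genes was 106 and 281 CPM in the posterior section and 860 and 1507 CPM in the anterior section. It was highest in the anterior-midgut section at 2510 and 2052 CPM. Ttn and Myl7 were lower in posterior replicate 2 than in posterior replicate 1, so the higher sum there came from other members of the list. The part of heart tissue in the lower levels of genes shared by heart and pharynx, such as Nkx2-5 and Tbx1, was not tested.

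The summed level of the neural crest list was 192 and 214 CPM in the posterior section, against 146 and 214 CPM in the anterior section. Sox10, the crest regulator, had 0.0733 and 0.0753 CPM in the posterior section and 1.70 and 23.1 CPM in the anterior section (log2 fold change -7.35, SE 1.42, adjusted p = 0.00796). Its anterior level lay mainly in replicate 2, and its call was lost without posterior replicate 1 (adjusted p = 0.0796) or posterior replicate 2 (adjusted p = 0.0604). Tlx2, another member of the crest list, was higher in the posterior section, at 58.8 and 19.7 CPM, against 0.298 and 0.126 CPM in the anterior section (log2 fold change 7.5, SE 0.91, adjusted p = 0.000494). Of 11 crest genes 1 was higher and 2 lower, while the count of lower genes was 4 without anterior replicate 1 and 1 without any other of the 4 libraries. Of 16 neural tube genes 2 were lower (Pax6 and Neurog2), with a median log2 fold change of -1.58, and the count was 1 or 0 without 1 of the libraries. Mesenchymal genes were lower in 3 of 21 cases (Nr2f2, Prrx2 and Tagln) and higher in none, and Tagln lost its call without anterior replicate 2 (adjusted p = 0.0503) or posterior replicate 1 (adjusted p = 0.0874). Nr2f2, a nuclear receptor gene of mesoderm and veins, stood at 9.45 and 30.1 CPM in the posterior section and at 83.7 and 84.7 CPM in the anterior section (log2 fold change -2.09, SE 0.39, adjusted p = 0.00667). Without posterior replicate 2 the list held 8 lower genes, and without posterior replicate 1 it held 4 higher and 2 lower. None of 14 endothelial genes passed edgeR's test (3 at an unadjusted p under 0.05, 1 by DESeq2), and of 13 primitive blood genes only Runx1 did, higher in the posterior section (adjusted p = 0.0209), a call lost without anterior replicate 1 (0.0817), anterior replicate 2 (0.167) or posterior replicate 2 (0.14).

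**Figure D4:**
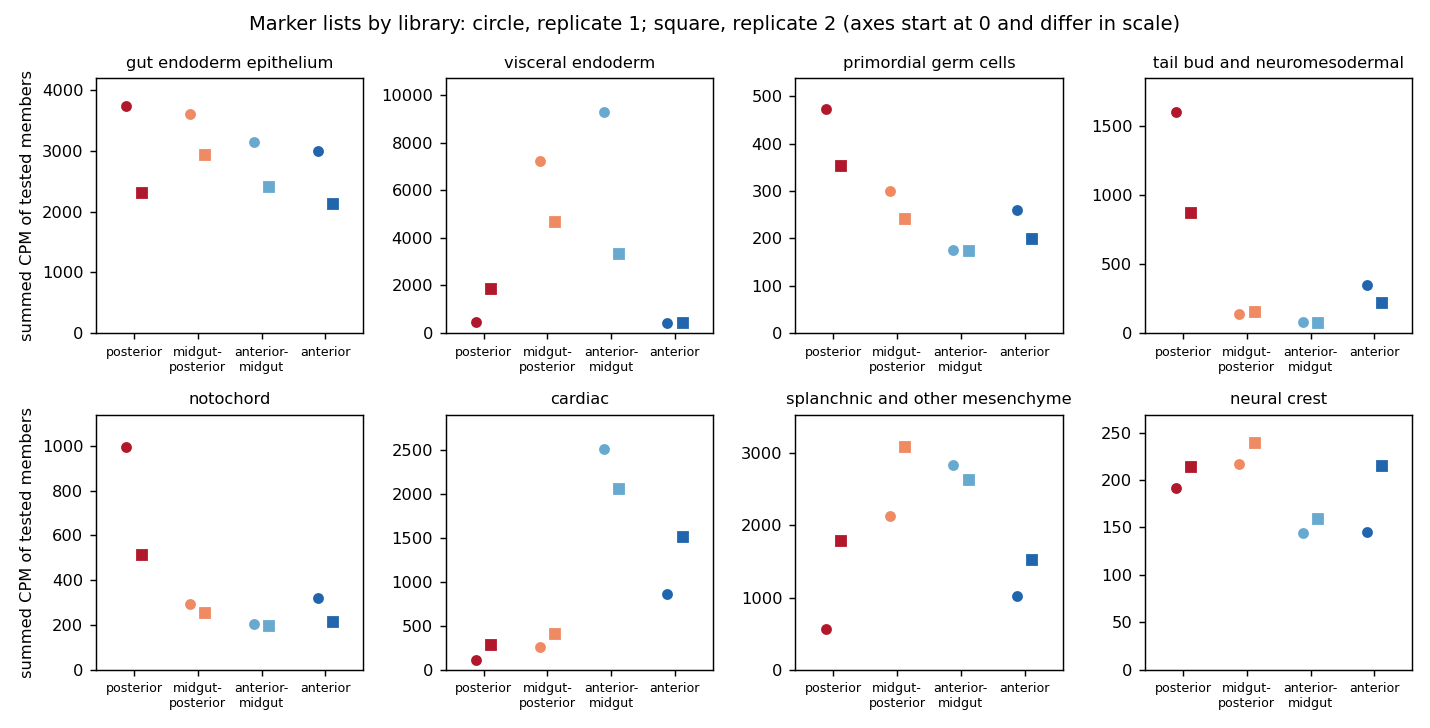
Summed CPM of the tested genes of 8 marker lists in each library, over the posterior, midgut-posterior, anterior-midgut and anterior section from left to right, with replicate 1 as a circle and replicate 2 as a square. Tail bud and notochord genes are highest in the posterior section, visceral endoderm genes in both middle sections and cardiac genes in the anterior-midgut section, and the 2 posterior libraries lie far apart for visceral endoderm and mesenchyme.

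Lists not chosen for a region of the gut lay on both sides of the 7.91% called among all genes. Of 22 cell cycle genes 1 was called (Ccnd1, higher), of 25 genes of glycolysis and hypoxia 1 (Ldha, higher), of 18 immediate early genes none by edgeR (2 at an unadjusted p under 0.05, 0 by DESeq2), and of 29 genes of epithelial adhesion 2 were higher and 3 lower, which is 17.2%. The adhesion list held 1 higher and 0 lower without posterior replicate 1, 1 higher and 2 lower without posterior replicate 2 or anterior replicate 1, and 0 higher and 3 lower without anterior replicate 2. The calls on Ccnd1 and Ldha were lost without any 1 of the 4 libraries. Sall4, a zinc finger gene of stem and progenitor cells, was the 1 gene called among 10 of the Lin28 and fetal RNA-binding list, at 227 and 176 CPM in the posterior section and 114 and 87.0 CPM in the anterior section (log2 fold change 1.00, SE 0.17, adjusted p = 0.00383). Targets of p53 were higher in 4 of 19 cases (21.1%) and lower in none, and 2 were higher without posterior replicate 1, anterior replicate 1 or anterior replicate 2. Cdkn1a, a cell cycle inhibitor gene, stood at 82.7 and 36.0 CPM in the posterior section and at 5.45 and 5.85 CPM in the anterior section (log2 fold change 3.39, SE 0.34, adjusted p = 0.00018). Pmaip1, a cell death gene, stood at 8.49 and 10.6 CPM in the posterior section and at 1.55 and 1.90 CPM in the anterior section (log2 fold change 2.47, SE 0.36, adjusted p = 0.00166). The middle sections lay between, at 19.2 to 31.9 CPM for Cdkn1a.

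**Figure D5:**
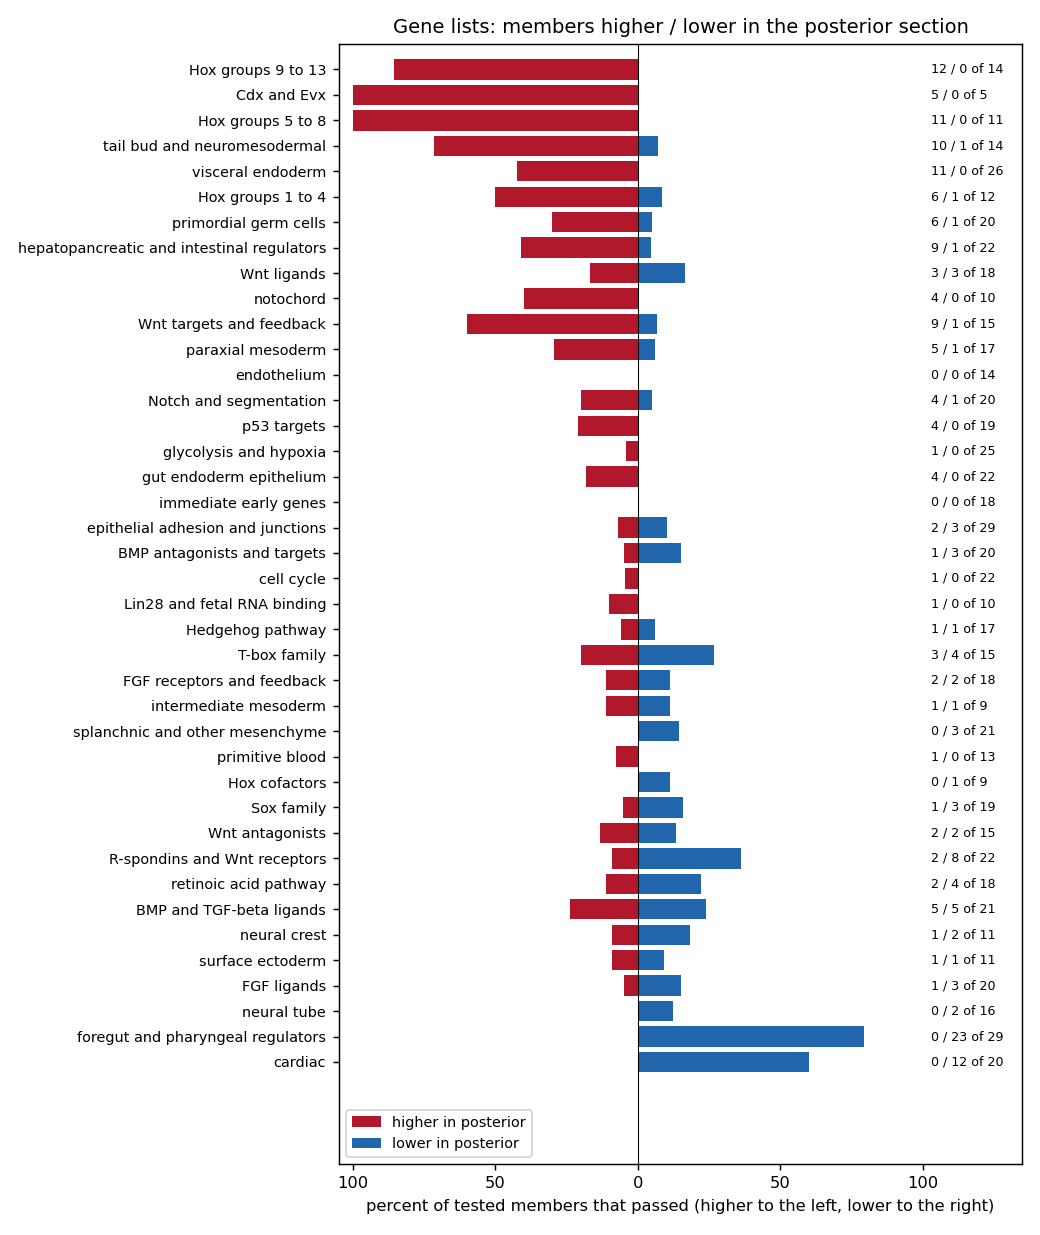
Percent of tested members of each gene list shown that were higher (red, to the left) or lower (blue, to the right) in the posterior section, ordered by the median log2 fold change, with the counts of higher and lower members of those tested at the right. The lists of sex-linked genes and of Hox cluster noncoding genes are left out. Hox groups 5 to 13, Cdx and Evx and tail bud genes are at the top and foregut and cardiac genes at the bottom, while endothelial and immediate early genes have no bar. Some genes stand on more than 1 list.

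The middle sections give the levels along the tube of the genes called between the ends. Because the calls set the order of the ends, no higher gene could peak in the anterior section. Likewise, no lower gene could peak in the posterior section. Of the 697 genes higher in the posterior section, 272 (39.0%) had mean levels in steady order over the 4 sections, and 490 had their highest mean in the posterior section, 177 in the midgut-posterior and 30 in the anterior-midgut section. Of the 673 lower genes, 250 (37.1%) were in steady order, and 483 had their highest mean in the anterior section, 182 in the anterior-midgut and 8 in the midgut-posterior section. The median step between neighbouring sections was between 0.459 and 0.482 on the log2(CPM + 0.1) scale for the higher genes and between -0.461 and -0.574 for the lower ones. The steps of a gene sum to its difference between the ends, by which it was called. These medians pool genes of unlike profiles, so they do not show that single genes changed evenly.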

How the data were processed

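Raw counts per gene were deposited by the authors for each library. Reads were aligned with STAR, per the submitters' processing notes. The STAR version, genome build, annotation, counting program and strand setting stand in none of the sources used. The gene lists and their members were chosen with earlier results of these data known, while the libraries were chosen by title. Repeated gene symbols were summed. Genes were kept by filterByExpr (minimum count 10, minimum total 15) and scaled by TMM. All 16 libraries, grouped as labelled, entered 1 edgeR 4.0.16 quasi-likelihood fit (R 4.3.3, residual df 8, median prior df 3.74, common dispersion 0.0592). The posterior section was contrasted with the anterior section, and p-values were adjusted by Benjamini-Hochberg over 17313 genes, with calls at 0.05. Each SE is the size of the log2 fold change divided by the square root of the test's F statistic. It was derived from the test and not estimated by the fit, and is least reliable for genes near 0 in 1 section. DESeq2 1.42.0 served as an alternative, and limma 3.58.1 supplied routines to edgeR. The fit was tested on simulated counts. Besides list members, the text names the 12 largest calls in each direction with a mean of at least 8 CPM and non-overlapping libraries, leaving out unnamed predicted genes. A few genes that these rules or lists hold are not reported here by name. "At least" folds set the counts pooled over both libraries of 1 section against a floor of 3 counts over both libraries of the other. They allow for the missing counts alone and not for the spread between replicates, so a single library can lie below them. Replicates differed beyond sampling noise (chi-square per gene 96.75 in posterior and 47.1 in anterior libraries). Counting error was small at these depths, so the spread between replicate libraries, pooled over all groups in the fit, limits precision.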

Additional observations from a re-analysis of the deposited data

How the results depend on the processing

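The count of 1370 genes called, 697 higher and 673 lower in the posterior section, was 1347 with RLE size factors, 1426 with no filter on low counts, 1893 with only the 8 section libraries and 1468 with a Y-linked covariate. DESeq2 called 2280 genes, 1157 higher and 1123 lower, and 1368 of the 1370 were among them. A test against a fold of 2 called 462 genes, 240 higher and 222 lower. With only the 4 end-section libraries 941 genes were called, of which 455 were higher, and 759 of the 1370 were among them. The fit with the Y-linked covariate held 1055 of the 1370. Leaving out 1 library gave between 615 and 1037 genes, between 273 and 556 higher and between 279 and 481 lower.

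The labels do not say what the replicate numbers stand for. The deviations of the end-section libraries from their section means correlated at 0.375 between equal numbers, over genes, with only 2 pairs. With the replicate number as a block, 2389 genes were called in the 4 end-section libraries, 1148 higher and 1241 lower, and 2856 in the 8 section libraries, 1413 higher and 1443 lower. Of the 1370 genes, 1248 and 1311 remained called in these 2 fits.

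Of 130 tested genes named, 117 were called, and 75 of these were called with each library left out in turn. The sign of a log2 fold change reversed for 6 named genes, none of them called in the fit of all libraries. Epcam was at 0.0179 with no filter, at 0.35 with the Y-linked covariate, and between -0.78 and 0.49 with 1 library left out. Xist was at 0.19 with the Y-linked covariate. With 1 library left out, Col1a1 lay between -0.98 and 2.79, Foxf1 between -0.77 and 2.13, Fgf8 between -0.00616 and 1.29, and Hoxb1 between -0.0756 and 0.16. The causes of these changes were not tested.

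Each section has 2 libraries, so a fit without 1 of them leaves a lone library whose spread is taken from the other groups. The 2 replicates of an end differ in the levels of tissue marker genes, and the number of embryos in each is not known. Depth was between 70987960 and 84509973 counts in the section libraries, so genes under about 0.1 CPM rest on fewer than 10 counts per library.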
